A study of Mus musculus with 8 samples.

Results

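Src family kinases are membrane-bound tyrosine kinases that carry signals from receptors without a kinase domain of their own. The kinase Csk phosphorylates a tyrosine in their C-terminal tail and holds them closed, and the receptor phosphatase CD148, encoded by Ptprj, can remove that phosphate. In platelets these kinases start signaling from the collagen receptor and from integrins, and Lyn also feeds inhibitory receptors. The genes described here are Lyn, Fyn, Src, Yes1, Fgr, Csk and Ptprj. They were found by symbol in the count table, and all 7 were present among its 13387 genes. Counts measure transcripts and not phosphorylation.

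Bulk RNA-Seq compared megakaryocytes (MKs) from C57BL/6 mice that were cultured alone (4 libraries) with MKs cocultured with bone marrow mesenchymal stromal cells (MSCs, 4 libraries) for 18 hours, to ask how MSCs alter the transcripts of the MK lineage. Each library pooled 5 wells, mice in the study were 8 to 12 weeks old, and thrombopoietin was given at 50 ng/ml. The MKs had been enriched from marrow by CD41, both groups were wild type, and MSCs were sorted as CD45-Ter119-CD31-CD51+CD140a+ cells. The labels give the collected cells as MKs separated from platelets, whereas the methods name platelets. The libraries are described as coming from 4 mice per group, and the labels do not tie a library to an animal.

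Totals ran from 4939874 to 12523616 counts, and 3 counts corresponded to 0.284 to 0.662 CPM, the count relative to the TMM-scaled size of a library. The third coculture library stood apart: it had the highest total but counts for 10735 genes, against 12406 to 13193 in the other libraries, so results that rest on it are given with and without it. Summed CPM of 15 MK and platelet markers was 1911 to 2251 in MKs alone and 1760.5 to 2361 in cocultures. Pf4 was the largest part of this sum, at 841 CPM on average in MKs alone and 1070.35 CPM in cocultures. Of the 15 markers, 0 passed the test, beside 13.2% higher and 7.31% lower of all tested genes. Without the third coculture Selp was called higher and Gp1ba and Gp6 lower, beside 20.6% and 15.4% of genes in that fit. DESeq2 on all libraries called Itgb3 lower (adjusted p = 0.048 by DESeq2), as it called 10.7% of genes. The mean log2(CPM + 1) of the 15 markers was lower in every coculture (4.45 to 5.51) than in every MK library (5.55 to 5.76). It was lowest in the third coculture. Of the 15 markers, 3 were lower in every coculture than in every MK library, as were 21.1% of all tested genes. Neutrophil markers summed to 84969 to 87094 CPM in MKs alone and 4533 to 10296 CPM in cocultures, and all 10 were lower. B cell markers summed to 854 to 902 CPM against 61.1 to 225 CPM, with 4 of 8 lower. MSC markers summed to 31.6 to 47.2 CPM against 1177 to 3858 CPM, with 6 of 8 tested higher, and macrophage markers to 152 to 227 CPM against 912 to 1357 CPM, with 8 of 9 tested higher. Erythroid markers summed to 15.4 to 30.7 CPM in MKs alone and 10.4 to 19.8 CPM in cocultures, with 0 of 3 tested called. Their mean log2(CPM + 1) was lower in every coculture (0.81 to 1.43) than in every MK library (1.55 to 2.38). The MK marker Gp6, the MSC markers Lepr and Postn, the macrophage marker Cd163, the B cell markers Vpreb1 and Igll1 and the erythroid markers Klf1 and Alas2 were at 0 in the third coculture. The part of these other cells in the results below was not tested. In bulk samples, fewer cells of a type and less RNA per cell cannot be told apart.

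Start-site windows of 300 bases were matched for 6 of the 7 genes in RefSeq (GRCm38.p6), reaching from 250 bases before to 50 after the start. Those of Ptprj, Yes1 and Fgr are shown because the calls of these 3 genes turned on single libraries; for Ptprj, the window at the annotated gene start is given. They are written 5′ to 3′ on the strand of the gene. Capitals mark the GC box GGGCGG or its reverse complement.
Ptprj chr2:90580546-90580845 (- strand): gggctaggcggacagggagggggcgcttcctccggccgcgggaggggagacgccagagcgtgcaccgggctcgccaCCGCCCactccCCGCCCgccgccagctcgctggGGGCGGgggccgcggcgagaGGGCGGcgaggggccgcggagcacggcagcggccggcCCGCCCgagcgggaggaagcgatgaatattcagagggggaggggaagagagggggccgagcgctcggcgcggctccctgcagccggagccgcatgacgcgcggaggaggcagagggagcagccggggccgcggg
Yes1 chr5:32610921-32611220 (+ strand): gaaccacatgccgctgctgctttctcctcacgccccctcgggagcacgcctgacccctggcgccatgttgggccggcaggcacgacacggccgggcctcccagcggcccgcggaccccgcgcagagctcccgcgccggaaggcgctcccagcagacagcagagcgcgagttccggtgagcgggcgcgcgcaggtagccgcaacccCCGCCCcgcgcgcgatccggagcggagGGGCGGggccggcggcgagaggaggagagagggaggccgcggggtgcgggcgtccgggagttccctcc
Fgr chr4:132973845-132974144 (+ strand): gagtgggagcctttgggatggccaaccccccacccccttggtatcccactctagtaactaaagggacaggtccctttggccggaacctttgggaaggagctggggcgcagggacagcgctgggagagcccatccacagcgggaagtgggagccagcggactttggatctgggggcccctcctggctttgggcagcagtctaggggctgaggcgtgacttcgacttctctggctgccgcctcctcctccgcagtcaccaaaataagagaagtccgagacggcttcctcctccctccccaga

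The windows of Ptprj and Yes1 each held 42 CpG sites, against a median of 7 over 32851 promoters of the same length (quartiles 3 and 20), and that of Fgr held 11. The Ptprj window held 5 GC boxes and the Yes1 window 2, and the Fgr window held none of the motifs searched. On either strand, GGGCGG was in 35.7% of all promoters, the GATA motif AGATAA in 11.2% and the ETS motif GAGGAAGT in 3.20%, and the 3 printed windows held neither of the latter. These matches describe letters and not binding.

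Lyn, the most abundant of these kinases and a carrier of both activating and inhibitory signals, was lower in the cocultures. Lyn (chr4:3678115-3813122, + strand, GRCm38, as for all gene positions here) measured 281, 312, 320 and 267 CPM in MKs alone 1 to 4 and 102, 98.1, 176 and 88.3 CPM in cocultures 1 to 4. All cocultures were below all MKs alone, and the third coculture was the highest of its group. Means were 295 ± 24.9 CPM and 116 ± 40.2 CPM (SD, n = 4 each). The log2 fold change was -1.34 (SE 0.25), a 2.54-fold lower level, with a Benjamini-Hochberg adjusted p = 0.0049 by the quasi-likelihood test of edgeR. A gene is called here at a fold change of at least 2 with an adjusted p of at most 0.05, and 7.31% of 11722 tested genes were called lower. Without the third coculture the Lyn change was -1.63 (SE 0.17).

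Ptprj (chr2:90429754-90580647, - strand), which encodes CD148, measured 55.8, 57.7, 64.1 and 64.4 CPM in MKs alone and 35.9, 33.7, 13.4 and 27.8 CPM in cocultures. Its groups did not overlap either, and the third coculture was the lowest. The log2 fold change was -1.13 (SE 0.33, adjusted p = 0.039 by edgeR), a 2.18-fold lower level, so that 2 of the 7 genes were called lower and 0 higher, against 7.31% lower and 13.2% higher among all tested genes. The Ptprj call was close to its thresholds. It was lost when any library other than the first coculture was left out, with log2 fold changes of -1.27 to -0.91 over all libraries left out in turn. Without the third coculture the change was -0.91 with an adjusted p = 0.00046, a 1.89-fold lower level.

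Fgr, a kinase of myeloid cells (chr4:132974095-133001910, + strand), measured 46.8, 78.3, 91.7 and 83.9 CPM in MKs alone and 14.6, 16.2, 0.523 and 24.8 CPM in cocultures. Every coculture was below every MK library, and the value of the third coculture was 5 counts. The log2 fold change of -2.43 (SE 0.83) had an adjusted p = 0.064 by edgeR and was not called, although DESeq2 gave an adjusted p = 0.0081 and called it, as it called 10.7% of genes lower, 15.8% higher and 26.6% in either direction. Without the third coculture it was -2.06 (SE 0.26, adjusted p = 4.6e-06 by edgeR), and Fgr was then called lower, as were 15.4% of 12267 genes tested. In all, 3 of the 7 genes were lower in every coculture than in every MK library, and 0 were higher throughout, against 21.1% and 19.3% of tested genes.

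Yes1, a broadly expressed kinase (chr5:32611171-32687057, + strand), measured 1.99, 1.86, 2.22 and 1.95 CPM in MKs alone and 15.9, 11.2, 0.314 and 20.5 CPM in cocultures. Cocultures 1, 2 and 4 were above every MK library, and the third, with 3 counts, was below them all. Of all tested genes, 28.1% were higher in each of cocultures 1, 2 and 4 than in every MK library. The log2 fold change was 2.57 (SE 0.97, adjusted p = 0.090 by edgeR, adjusted p = 0.020 by DESeq2). Without the third coculture it was 2.95 (SE 0.32, adjusted p = 9.3e-07 by edgeR) and called higher, as were 20.6% of genes in that fit.

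Fyn, Src and Csk were not called. Fyn (chr10:39368855-39565381, + strand), a kinase that works beside Lyn below the platelet collagen receptor, measured 60.5, 67.8, 59.4 and 54.0 CPM in MKs alone and 65.4, 65.1, 18.4 and 67.7 CPM in cocultures. Cocultures 1, 2 and 4 lay within the range of MKs alone, and the third lay below it. The log2 fold change was -0.16 (95% interval -1.04 to 0.72, adjusted p = 0.81 by edgeR), and without the third coculture it was 0.11 (95% interval -0.25 to 0.46).

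Src (chr2:157418444-157471862, + strand), the founding member of the family, measured 11.7, 14.8, 19.4 and 16.1 CPM in MKs alone and 16.4, 16.7, 37.1 and 28.3 CPM in cocultures. The groups overlapped, with the highest values in cocultures 3 and 4. The log2 fold change was 0.66 (95% interval -0.25 to 1.58, adjusted p = 0.27 by edgeR), and without the third coculture it was 0.36. Csk (chr9:57626646-57653631, - strand) measured 24.1, 32.1, 45.1 and 38.6 CPM in MKs alone and 20.6, 27.5, 36.0 and 28.4 CPM in cocultures. These groups overlapped as well, and the log2 fold change was -0.31 (95% interval -1.04 to 0.41, adjusted p = 0.52 by edgeR).

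**Figure D1:**
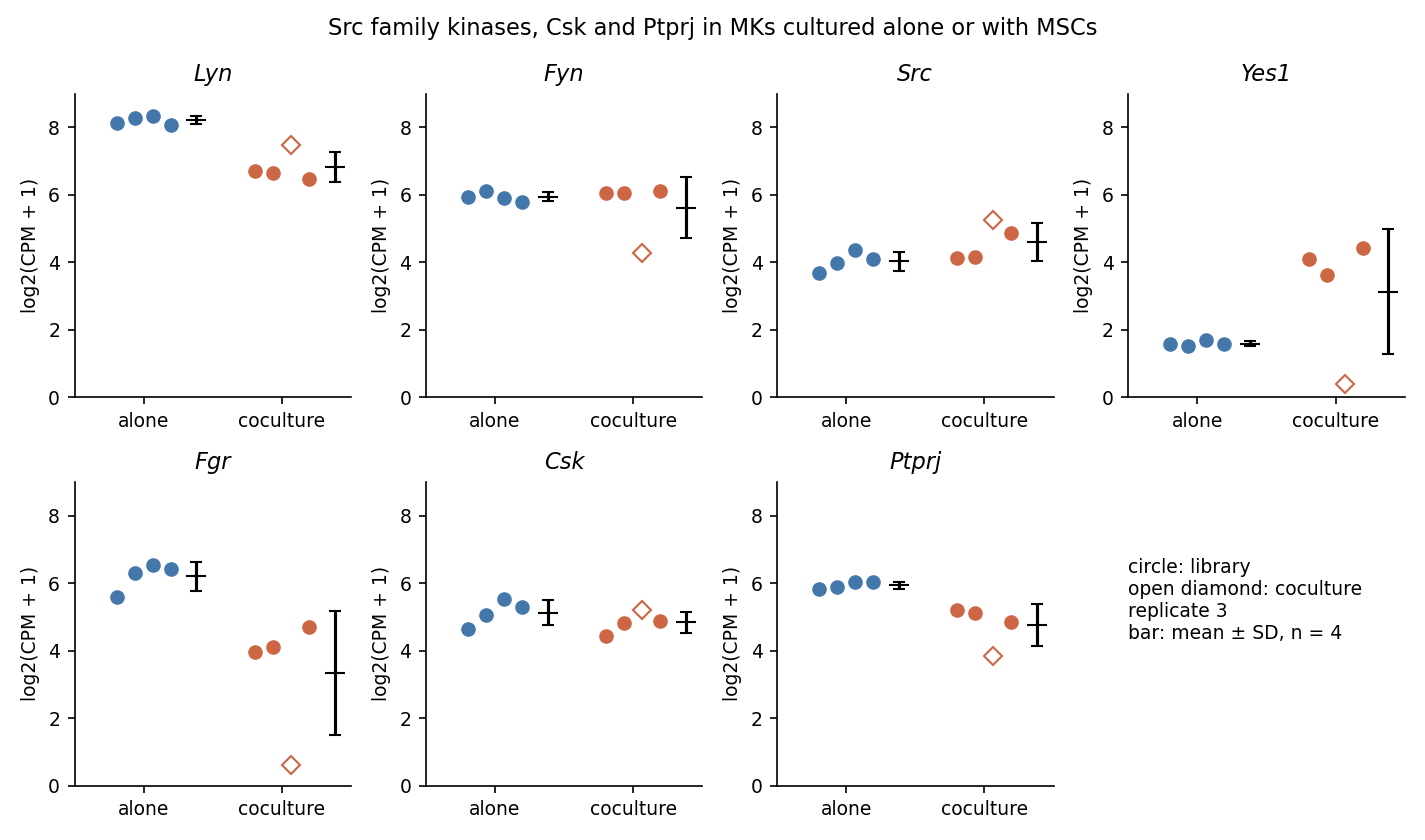
Level of each of the 7 genes as log2(CPM + 1), with 1 point per library, 4 MKs alone and 4 cocultures, and the third coculture as an open diamond. Lyn, Fgr and Ptprj are lower in every coculture than in every MK library, and the third coculture lies apart from the other cocultures for Fyn, Yes1 and Fgr.

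**Figure D2:**
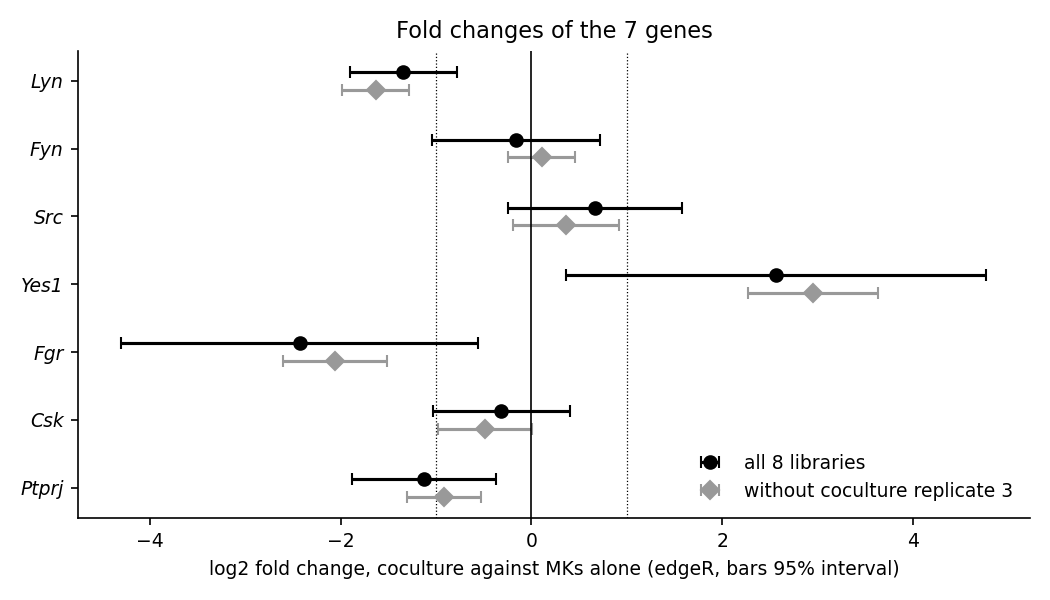
Log2 fold change of cocultures against MKs alone for the 7 genes by edgeR with 95% intervals, from all 8 libraries and without the third coculture. The intervals of Yes1 and Fgr narrow when that library is left out, and the Fyn value moves from -0.16 to 0.11.

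Levels of different genes were compared as CPM per kilobase of exon. In MKs alone, the mean level was 72.4 ± 6.1 CPM per kilobase for Lyn, 19.5 ± 5.1 for Fgr, 13.9 ± 1.3 for Fyn, 9.35 ± 2.4 for Csk, 7.25 ± 0.53 for Ptprj, 3.55 ± 0.73 for Src and 0.267 ± 0.020 for Yes1 (SD, n = 4). Of neighbors in this order, Fgr and Fyn overlapped, as did Csk and Ptprj. In cocultures Lyn was again the highest at 28.5 ± 9.9 CPM per kilobase, followed by Fyn at 12.4 ± 5.5 and Csk at 7.53 ± 1.7. Below them were Src at 5.63 ± 2.3, Fgr at 3.63 ± 2.6, Ptprj at 3.32 ± 1.2 and Yes1 at 1.60 ± 1.2, and every neighboring pair after Lyn overlapped.

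The summed level of Lyn, Fyn, Src, Yes1 and Fgr was 97.9 to 120.6 CPM per kilobase in MKs alone and 48.5 to 56.1 in cocultures, without overlap. Other members of the family are not in this sum, and the separation is that of these 5 genes alone. Lyn made up 63.3 to 70.5% of this sum in MKs alone. Its share was 49.7%, 50.5%, 77.0% and 41.1% in cocultures 1 to 4, below the MK range in 3 libraries and above it in the third coculture. The Fyn share was 11.3 to 14.2% in MKs alone, 29.4 to 30.8% in cocultures 1, 2 and 4 and 7.53% in the third.

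**Figure D3:**
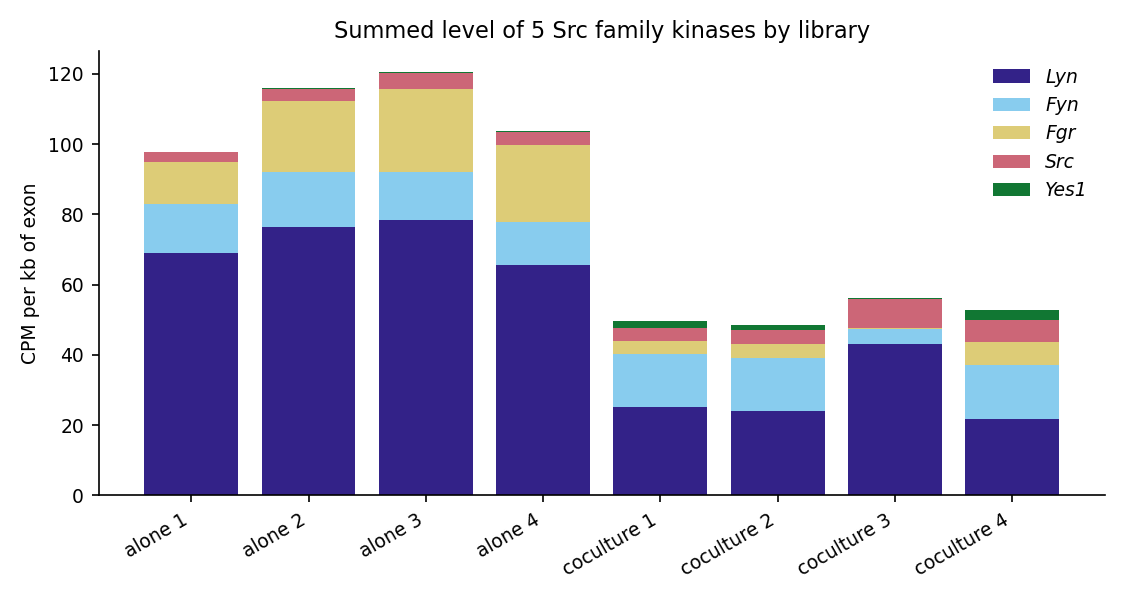
Level of Lyn, Fyn, Fgr, Src and Yes1 in CPM per kilobase of exon, stacked for each of the 8 libraries. The sums of the 5 genes are lower in the cocultures, Lyn is the largest part of each bar, and the third coculture has a larger Lyn part and smaller Fyn and Fgr parts than the other cocultures.

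Of the other family members, the lymphocyte kinase Lck averaged 18.6 ± 2.0 CPM in MKs alone, with 38.1 CPM in the third coculture and a mean of 5.92 CPM in the others (log2 fold change -0.41, adjusted p = 0.72 by edgeR). Blk, a B cell kinase, had a log2 fold change of -2.59 (adjusted p = 0.051 by edgeR). Frk, a related kinase of epithelial cells, had 0 counts in all MKs alone and in the third coculture, and 31.4, 24.4 and 22.0 CPM in cocultures 1, 2 and 4. Its coculture mean was at least 29.4-fold higher than the floor of 3 counts in the shallowest MK library.

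Ratios of counts within a library do not depend on its scaling. The Lyn to Csk ratio was 11.7, 9.72, 7.08 and 6.93 in MKs alone and 4.98, 3.57, 4.89 and 3.10 in cocultures, without overlap and with the third coculture among the others. The log2 ratio differed by -1.09 (exact permutation test on both sides, p = 0.0286, which is the smallest value possible with 4 against 4 libraries, and adjusted p = 0.114 over 4 ratios). The Ptprj to Csk ratio was 2.32, 1.80, 1.42 and 1.67 in MKs alone and 1.75, 1.23, 0.372 and 0.976 in cocultures, a log2 difference of -0.92 (exact p = 0.0857, adjusted p = 0.143). It was -0.47 without the third coculture.

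Lyn and Fyn stood in a ratio of 4.65, 4.60, 5.38 and 4.95 in MKs alone and 1.57, 1.51, 9.55 and 1.31 in cocultures. The log2 difference was -1.07 (exact p = 0.143, adjusted p = 0.143), and -1.75 without the third coculture, which lay above all MKs alone. The Fgr to Lyn ratio was 0.167, 0.251, 0.287 and 0.314 in MKs alone and 0.142, 0.165, 0.00297 and 0.281 in cocultures. Its log2 difference was -1.86 (exact p = 0.114, adjusted p = 0.143) and -0.40 without the third coculture.

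**Figure D4:**
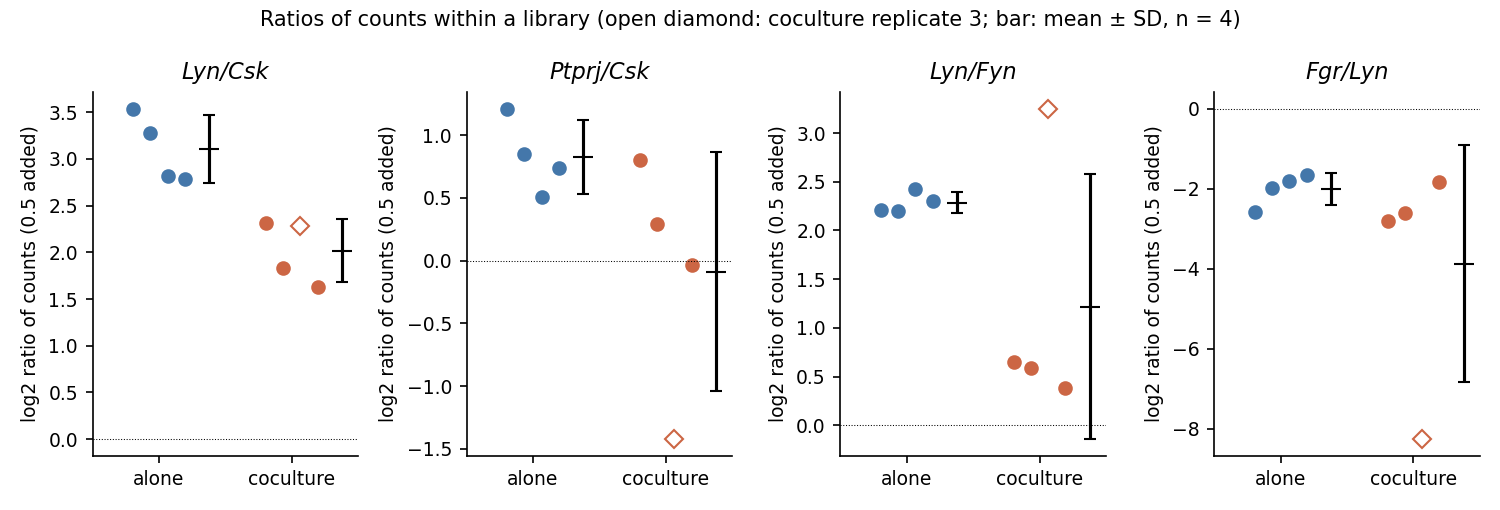
Log2 ratios of counts within a library (0.5 added to each count) for 4 gene pairs, with 1 point per library, the third coculture as an open diamond and bars for mean ± SD (n = 4). The Lyn to Csk ratio separates the groups, and the third coculture lies apart in the Lyn to Fyn and Fgr to Lyn ratios.

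Beyond these genes, 63 regulators, receptors and substrates of the family were listed in 5 groups. Dok1 and Ptpn6 each appear in a further group, and the totals do not repeat them. Of 61 tested, 10 were called higher, 17 lower and 34 were not called, against 13.2% higher and 7.31% lower of all tested genes. Their median log2 fold change was -0.84, beside 0.03 over all tested genes. Without the third coculture 11 of 62 were called higher and 33 lower, with a median of -1.17, where 20.6% and 15.4% of all genes in that fit were called higher and lower. Many of them are leukocyte genes. Of the leukocyte marker sums given above, those of neutrophils and B cells were lower in cocultures and that of macrophages was higher. The part of these cells in the list was not tested.

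Of 12 tested genes for the Csk paralog and adaptors, 3 were called higher and 2 lower, beside 13.2% and 7.31% of all tested genes. Pag1, the membrane adaptor that binds Csk, averaged 131 ± 21.5 CPM in MKs alone and 14.7 ± 10.2 CPM in cocultures (log2 fold change -3.15, adjusted p = 0.043 by edgeR), with 0.105 CPM in the third coculture. Sla, an adaptor that lowers receptor signaling, had a log2 fold change of -1.78. The docking proteins Dok1 and Dok2 had log2 fold changes of 1.67 and 1.59. Cav1, the main protein of caveolae, had 0 counts in all MKs alone and averaged 151 CPM in cocultures, at least 227-fold higher than the floor. Ptpn12, a phosphatase that binds Csk, had a log2 fold change of -0.90 (adjusted p = 0.14 by edgeR).

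Of 8 phosphatases that act on these kinases, 1 was called higher and 3 lower, beside 13.2% and 7.31% of all tested genes. Ptprc, which encodes CD45 and opens Src family kinases in leukocytes, averaged 845 ± 251 CPM in MKs alone and 177 ± 121 CPM in cocultures (log2 fold change -2.26, adjusted p = 0.049 by edgeR), with 14.9 CPM in the third coculture. Ptpre and Ptpn6, the latter encoding SHP-1, had log2 fold changes of -1.53 and -1.36. Ptprk was called higher, with a mean of 0.449 CPM in MKs alone and 46.3 CPM in cocultures. Ptpra, the abundant receptor phosphatase that opens Src, averaged 118 ± 6.3 and 155 ± 35.7 CPM (log2 fold change 0.39, adjusted p = 0.19 by edgeR).

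Lyn phosphorylates inhibitory receptors that carry ITIM motifs. Of 14 such receptors and effectors, 3 were called higher and 5 lower, beside 13.2% and 7.31% of all tested genes. These calls include Dok1 and Ptpn6 from the groups above. Inpp5d, which encodes the lipid phosphatase SHIP1, averaged 163 ± 16.7 CPM in MKs alone and 37.7 ± 5.8 CPM in cocultures (log2 fold change -2.11). Its relative Inppl1, which encodes SHIP2, went the other way, from 1.53 ± 0.68 to 52.5 ± 22.7 CPM (log2 fold change 5.07). The receptors Ceacam1, Fcgr2b and Clec12a were lower (-2.92, -2.51 and -1.69), whereas Lilrb4a was higher, at 290 ± 46.0 CPM in MKs alone and 754 ± 128 CPM in cocultures (log2 fold change 1.38).

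Of 26 receptors, adaptors and substrates, 4 were called higher and 8 lower, beside 13.2% and 7.31% of all tested genes. Syk, the kinase recruited after Src family kinases act, averaged 213 ± 30.7 CPM in MKs alone and 92.6 ± 12.9 CPM in cocultures (log2 fold change -1.20). The Tec family kinases Btk and Tec, the exchange factor Vav1 and the adhesion adaptor Pxn had log2 fold changes of -2.18, -1.20, -1.12 and -1.33. The B cell genes Cd79a (-2.30) and Cd79b (-2.66) were lower too and are also in the B cell marker list. The focal adhesion genes Ptk2 and Cttn were higher, at 3.43 and 1.84, as was the GTPase regulator Arhgap35 at 2.54, although Ptk2 was at 1.15 CPM in the third coculture, below its MK mean of 3.97 CPM. The Src substrate Bcar1 had 0 counts in all MKs alone and averaged 69.3 CPM in cocultures, at least 105-fold higher than the floor. Fcer1g and Skap2 had adjusted p = 0.041 and adjusted p = 0.045 by edgeR at changes smaller than the fold threshold. Itgb3, the platelet integrin subunit, had a log2 fold change of -1.20 (adjusted p = 0.11 by edgeR), with 35.6 CPM in the third coculture and a mean of 217 CPM in the others.

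**Figure D5:**
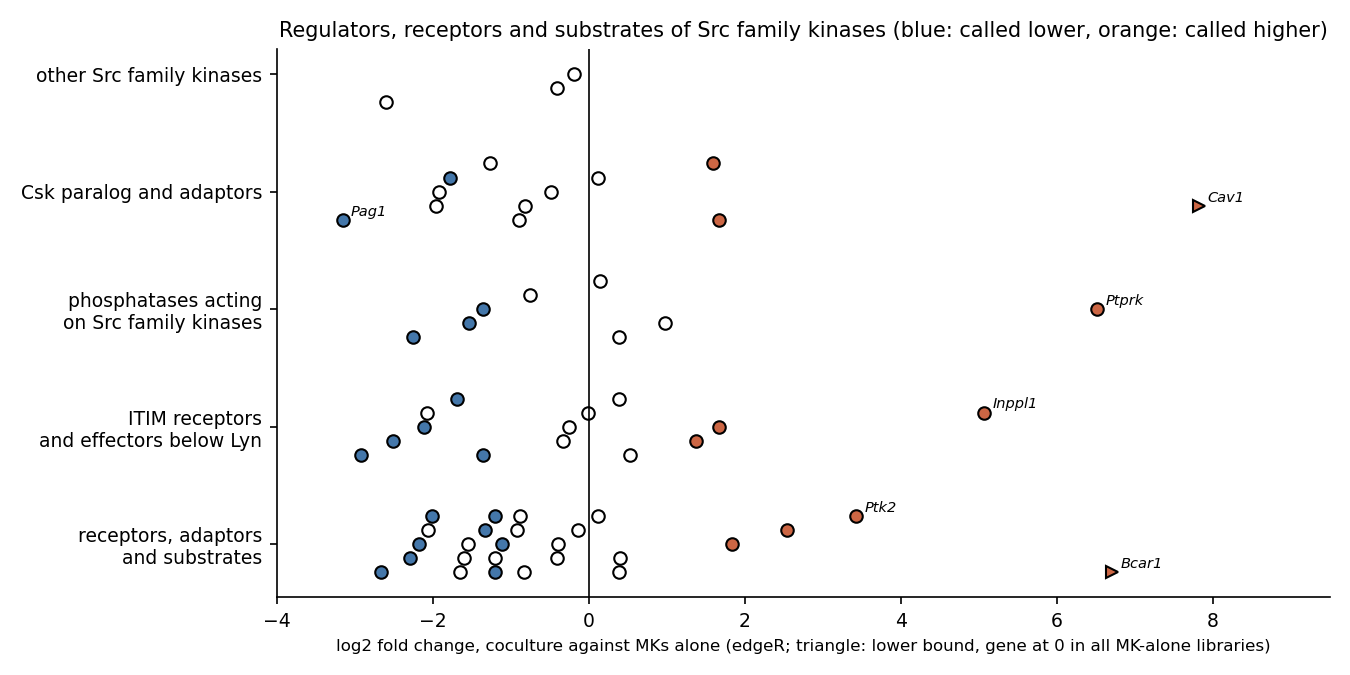
Log2 fold change of each tested gene in 5 groups of regulators, receptors and substrates, with genes called lower in blue, called higher in orange and others open. Triangles mark Cav1 and Bcar1 at their lower bounds, and 17 genes are called lower against 10 higher. Dok1 and Ptpn6 are drawn in each group that lists them.

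Across the 8 libraries, the tested genes whose log2(CPM + 1) pattern lay nearest to that of Lyn, by root mean square difference after centering each gene, were Elf4, Dock8 and Arl11 (0.114, 0.133 and 0.142). Among those nearest to Ptprj were Tspan14 and Plekha2 (0.135 and 0.138). Csk lay nearest to Mknk2, Tkt and Sys1 (0.0649, 0.0984 and 0.106), and Fgr to Napsa, Acap1 and Rin3 (0.167, 0.187 and 0.189). The 8 points of each gene share their libraries and depths.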

How the data were processed

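RNA-Seq libraries were grouped by their labels into MKs alone and cocultures. The authors deposited raw counts per gene, made from SMART-Seq HT reads that were filtered with fastp and quantified with kallisto on mm10. They are whole numbers with no scaling applied. The summing over transcripts and the use of strand are not given in the sources used here, so overlapping genes are uncertain. The methods of the study include a batch term, which the labels do not give, so none was fitted. All count columns were mapped to libraries. Counts were tested with edgeR 4.0.16 in R 4.3.3 (TMM factors, filterByExpr, robust quasi-likelihood F test) on all 8 libraries and all genes. Of 13387 genes 11722 passed the filter, all 7 described genes among them. The call required at least a 2-fold change, an adjusted p no higher than 0.05, and 1 CPM or more as the mean of either group. Ratios received 0.5 per count and an exact permutation test (scipy 1.17.1). Exon lengths came from GENCODE on GRCm38. Totals ran from 4939874 to 12523616 counts, and floors cover counting error only, since reads carry no molecular identifiers. The tests were tried on simulated counts. Alternatives were DESeq2 1.42.0, other scalings, no filter, the replicate number as a block and each library left out.

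The 7 genes and the gene lists were chosen with earlier results of these data known. Named genes are these 7, the called genes and the 3 most abundant genes of each list, and the 3 genes most alike to Lyn, Csk, Ptprj and Fgr. Postn, Lepr and the other markers at 0 were named after their values were seen. A few genes that this rule names are not reported here.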

Additional observations from a re-analysis of the deposited data

Results flagged for a closer look

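Among 22 sets of 4 libraries, 3 held a value far from the others, where chance gives about 1 in 20 sets, or 1.1 here. The sets share libraries and the ratios reuse the counts of the genes, so the 3 cannot be weighed against 1.1. All 3 were the third coculture. Its Fyn level was 4.28 on the log2(CPM + 1) scale, with 6.05 to 6.10 in the other cocultures. Its log2 Lyn to Fyn ratio was 3.25, with 0.38 to 0.65 in the others. Its log2 Fgr to Lyn ratio was -8.26, with -2.81 to -1.83 in the others.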

How the results depend on the processing

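Lyn remained called lower under every alternative run. With scaling to MK and platelet markers Lyn was close to both thresholds (log2 fold change -1.01, adjusted p = 0.042 by edgeR). Ptprj was no longer called with library size only (log2 fold change -1.06), with scaling to MK and platelet markers (-0.85) or with the replicate block (-1.21), which left 1 of the 7 genes called lower in each. DESeq2 called Yes1 higher (2.54, 1 gene called higher) and Fgr lower (-2.47), and DESeq2 with the replicate block called Fgr (-2.85) but not Yes1 (2.01, adjusted p = 0.14), and called 28 regulator genes lower, against 17, and 1392 of 11722 genes lower, against 857. Marker scaling moved the median of all genes from 0.03 to 0.32 and the share of higher calls from 64.3% to 77.6%, and turned Fyn to 0.091 and Csk to 0.0049. Fyn was 0.11 without the third coculture. The causes were not tested.

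With each library left out in turn, log2 fold changes ranged from -1.63 to -1.18 for Lyn, -0.26 to 0.11 for Fyn, 0.36 to 0.85 for Src, 2.22 to 2.95 for Yes1, -2.82 to -2.06 for Fgr, -0.49 to -0.18 for Csk and -1.27 to -0.91 for Ptprj. The 7 genes gave 1 to 2 calls lower and 0 to 1 higher, and the regulators 8 to 11 higher and 11 (without the second MK library) to 33 lower (without the third coculture). Log2 ratio differences ranged from -1.20 to -0.95 for Lyn to Csk, -1.21 to -0.47 for Ptprj to Csk, -1.75 to -0.79 for Lyn to Fyn and -2.54 to -0.40 for Fgr to Lyn. All tested genes gave 2401 calls, 3116 by DESeq2, and between 1634 and 4420 when single libraries were omitted, with the 4420 calls made without the third coculture. Same-numbered libraries correlated at 0.369, 0.0198, 0.150 and 0.0280 in their deviations from the group means, and differently numbered ones at -0.282 to 0.0990. These values do not settle whether the numbers are pairs, and the main fit did not take them as pairs. The replicate block gave 1669 calls over all genes. Exact tests of 3 against 4 libraries cannot go below p = 0.0571.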
